A study of Mus musculus with 30 samples.

Results

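The 38 genes described here encode the antioxidant, glutathione and NRF2-linked enzymes of the cell, together with 3 NADPH oxidase subunits that produce the oxidants. They were listed by gene symbol and all 38 were found in the count tables, of 54838 genes in kidney and 55487 in gastrocnemius. Kidney and gastrocnemius, the calf muscle, came from male wild-type C57BL/6J mice of a dietary NAFLD model, and each tissue had 3 groups of 5 libraries, 30 libraries in all. All groups were housed at thermoneutrality (30 to 32 °C) from 6 weeks of age, so the controls also carry that housing. From Week 7 the CD group received the chow diet and water, the WD group the western diet and water, and the WD + CHP group the western diet with CHP, a small ring peptide built from histidine and proline, at 20 mg/kg by gavage 3 times per week. The mice were killed at Week 24 after a fast of 3 h. Each library was made from 1 mouse, and the sources used here do not tell which kidney and which muscle were taken from 1 animal. The sample labels name frozen liver as the starting material, whereas the study's methods name kidney and gastrocnemius. The tissue labels were checked against defining markers. The filter on low counts was passed by 10 of 10 proximal tubule genes in kidney but by 1 in gastrocnemius, and by 9 of 9 fast-fibre genes in gastrocnemius but by 4 in kidney.

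NRF2, encoded by *Nfe2l2*, is a transcription factor that KEAP1 holds in the cytoplasm and marks for degradation until oxidants or electrophiles modify KEAP1. Freed NRF2 enters the nucleus, pairs with small MAF proteins and binds antioxidant response elements in front of genes for glutathione synthesis, NAD(P)H- and haem-metabolising enzymes, thioredoxin and peroxiredoxin enzymes and glutathione S-transferases. The kidney tubule is rich in peroxidases and glutathione enzymes, and skeletal muscle relies on mitochondrial superoxide dismutase, peroxiredoxins and catalase to clear the oxidants made during contraction.

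Each kidney library held between 37189192 and 38211422 counts, and each gastrocnemius library between 50319024 and 53282969. Mitochondrial genes took 17.8% to 21.1% of the kidney counts and 7.74% to 11.5% of the gastrocnemius counts. A few libraries stood apart in markers of other cell types. The summed CPM (counts relative to the TMM-scaled library size, in the usual CPM units) of 8 hepatocyte markers was 896 in kidney WD replicate 5 against 166 to 334 in the other kidney libraries, and 65.8 in gastrocnemius CD replicate 1 and 66.0 in gastrocnemius WD replicate 3 against at most 14.5 in the other gastrocnemius libraries. In gastrocnemius, a score of 9 adipocyte markers (mean of centred log2 CPM) was -0.59 to -0.017 in CD, 0.37 to 0.71 in WD and -0.66 to 0.081 in WD + CHP, so that the WD libraries did not overlap either of the other groups. The summed CPM of 5 erythroid markers was 176, 206 and 260 in kidney CD replicate 4, WD replicate 4 and WD + CHP replicate 2 against 12.6 to 85.9 in the other kidneys. In gastrocnemius it was 2.59 to 12.2 in CD, 3.83 to 49.4 in WD (highest in replicates 1 and 2) and 4.31 to 20.3 in WD + CHP. By edgeR 0 of the 5 and 4 erythroid genes tested passed in kidney and gastrocnemius (median log2 fold change 0.32 and 1.60 in WD vs. CD), and their part in the results was not tested. The gastrocnemius CD group was split. Replicates 1 and 2 differed from 3 to 5 by a chi-square per gene of 33.7 to 52.0, against 14.1 to 17.3 within each set. Their summed CPM of 9 fast-fibre markers was 212000 and 204000 against 239900 to 245100. Their mitochondrial shares were 10.25% and 9.67% against 7.74% to 8.85%. The part of this split in the comparisons with CD was not tested.

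The members made up 3.91% to 5.08% of all kidney counts and 0.175% to 0.228% of all gastrocnemius counts. Most of the kidney share was *Gpx3*, the secreted plasma glutathione peroxidase that proximal tubules make, which alone took 2.86% to 4.01% of the counts. Per kb of exon, *Gpx3* had a mean of 17930 CPM ± 2201 (SD, n = 5) in the kidneys of CD mice, followed by the cytosolic peroxidase *Gpx1* (738 ± 64.7), catalase *Cat* (530 ± 32.7), the glutathione S-transferase *Gstm1* (419 ± 53.6), the γ-glutamyl transferase *Ggt1* (356 ± 24.5) and the peroxiredoxin *Prdx5* (351 ± 30.0). Along this order, *Gstm1* and *Ggt1*, as well as *Ggt1* and *Prdx5*, differed by less than the sum of their SDs. In the gastrocnemius of CD mice the highest levels per kb were those of *Gpx3* (123 ± 16.1), the mitochondrial peroxiredoxin *Prdx3* (94.0 ± 2.14), *Gstm1* (83.9 ± 10.0), the lipid hydroperoxide peroxidase *Gpx4* (72.0 ± 5.36) and the glutathione S-transferase *Gstp1* (62.9 ± 4.13). Apart from *Gpx3*, neighbours in that order also lay within the sum of their SDs.

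**Figure D1:**
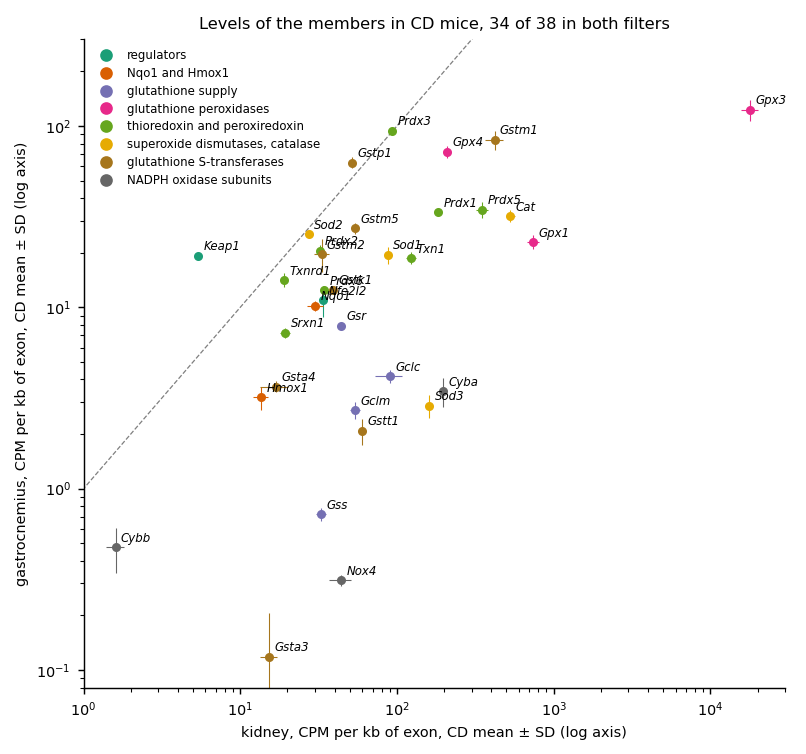
Mean CPM per kb of exon in CD mice, kidney on the x axis and gastrocnemius on the y axis, both log axes, with SD over 5 libraries, coloured by role. The dashed line marks equal values, and the tables were normalised separately. *Gpx3* lies far to the right at 17930 in kidney and 123 in gastrocnemius, whereas *Keap1* lies above the line at 5.39 and 19.2.

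The cystine transporter *Slc7a11* and the epithelial peroxidase *Gpx2* did not pass the filter in either tissue. *Slc7a11* was at or below 0.237 CPM in every kidney library and 0.0954 CPM in every gastrocnemius library, and *Gpx2* reached 0.233 CPM in kidney WD replicate 5 and 0.0365 CPM in gastrocnemius. *Ggt1* and the glutathione S-transferase *Gsta2* were also too low to test in gastrocnemius, at no more than 0.0384 and 0.154 CPM. This left 36 members tested in kidney and 34 in gastrocnemius. Standard errors of the log2 fold changes were 0.038 to 0.23 among the kidney members and 0.039 to 0.56 among the gastrocnemius members, so that small differences in the more variable members could not be detected.

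Promoter windows from RefSeq (GRCm38.p6), from 250 bases before to 50 bases after each transcription start, were matched by symbol for 32 of the 38 members. *Hmox1*, *Gclc*, *Gsr*, *Prdx6*, *Sod3* and *Gsta4* had no window. The core letters of the antioxidant response element, TGACNNNGC, were searched on both strands, where they read GCNNNGTCA on the other strand. They were found in a window of 9 of the 32 members (28.1%), which were *Nfe2l2*, *Gclm*, *Ggt1*, *Txnrd1*, *Srxn1*, *Prdx1*, *Sod1*, *Gsta3* and *Gstm5*, and of 3781 of all 27025 genes with a window (14%). Windows of *Srxn1* (chr2:152105274-152105573, + strand, letters at +29 to +37), *Gclm* (chr3:122245307-122245606, + strand, -134 to -126), *Prdx1* (chr4:116685349-116685648, + strand, -133 to -125) and *Cat* (chr2:103485104-103485403, - strand, no match) are shown because *Srxn1* and *Cat* had the smallest p among the members of the muscle comparison of WD vs. CD, and *Gclm* and *Prdx1* carry the letters and had no call in either tissue with TMM scaling and all libraries in the fit, though some alternatives called each of them. Capitals mark the letters, and all 3 matches lie on the strand opposite to the gene, so that they appear as GCNNNGTCA. A match describes the window and is no evidence of binding. Only the letters TGACNNNGC in these 300 bases were searched, so no match does not mean that an element is absent. By edgeR with all libraries, 1 of the 9 members with the letters (*Srxn1*) was called in any comparison. Of the 23 with no match, 21 were tested and 6 called, and 4 of the 6 without a window were called. Whether the letters go with the calls was not tested.
Srxn1: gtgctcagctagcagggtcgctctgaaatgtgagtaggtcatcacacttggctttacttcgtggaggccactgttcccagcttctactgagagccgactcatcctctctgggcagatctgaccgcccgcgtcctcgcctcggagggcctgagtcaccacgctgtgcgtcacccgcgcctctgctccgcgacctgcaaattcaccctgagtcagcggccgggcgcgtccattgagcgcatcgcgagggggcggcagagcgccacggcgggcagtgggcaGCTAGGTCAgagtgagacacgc
Gclm: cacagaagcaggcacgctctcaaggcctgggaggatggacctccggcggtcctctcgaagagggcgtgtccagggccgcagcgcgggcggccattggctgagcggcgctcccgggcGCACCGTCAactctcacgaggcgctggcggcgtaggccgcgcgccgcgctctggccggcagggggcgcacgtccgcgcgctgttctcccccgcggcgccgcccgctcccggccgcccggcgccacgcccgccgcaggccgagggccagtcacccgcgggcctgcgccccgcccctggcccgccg
Prdx1: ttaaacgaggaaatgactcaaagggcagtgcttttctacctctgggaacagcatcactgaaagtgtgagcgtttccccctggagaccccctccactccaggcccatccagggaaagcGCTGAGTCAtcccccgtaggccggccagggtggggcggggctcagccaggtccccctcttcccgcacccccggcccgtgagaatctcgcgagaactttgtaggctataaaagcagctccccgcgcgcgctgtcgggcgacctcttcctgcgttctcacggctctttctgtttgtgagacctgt
Cat: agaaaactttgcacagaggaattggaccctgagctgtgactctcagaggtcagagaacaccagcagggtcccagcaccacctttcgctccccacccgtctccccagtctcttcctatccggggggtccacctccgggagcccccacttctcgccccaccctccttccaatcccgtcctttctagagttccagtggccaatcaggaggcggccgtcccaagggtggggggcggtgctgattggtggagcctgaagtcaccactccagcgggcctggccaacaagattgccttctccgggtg

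The first question was what the western diet did to these genes in the kidney. In WD vs. CD, 3 of 36 members passed the test (8.33%; edgeR quasi-likelihood test, two-sided, Benjamini-Hochberg adjusted p under 0.05 over all genes), against 9.65% of all 17120 genes tested. The glutathione S-transferase *Gstt1* and the peroxiredoxin *Prdx6* rose (4.62% of all genes rose) and *Gstm1* fell (5.03% of all genes fell). The median log2 fold change of the members was 0.030, and that of all genes was 0.0015. The same question in WD + CHP vs. WD gave 0 of 36 members, against 0.105% of all genes (0.0993% higher, 0.00584% lower), while 7 of the 36 had an unadjusted p under 0.05, as did 1958 of the 17120 genes. DESeq2 and limma-voom also called 0 members there. With CHP relative to CD, 3 of 36 members passed, against 12.1% of all genes. The haem oxygenase *Hmox1* and the sulfiredoxin *Srxn1* rose (6.25% of all genes rose) and *Gstm1* fell (5.84% of all genes fell). These comparisons share their groups, so they are not independent of each other. In bulk tissue, fewer cells of a type and less RNA per cell cannot be told apart. The summed CPM of the 10 proximal tubule markers was 33670 to 37310 in CD, 30260 to 33720 in WD and 33100 to 37910 in WD + CHP. Of these markers, 2 were higher and 2 lower in WD vs. CD, and 2 higher and 1 lower in WD + CHP vs. CD. Of markers of other cell types in kidney, 2 of 8 hepatocyte genes and 1 of 4 fast-fibre genes were higher and 1 hepatocyte and 1 of 6 adipocyte genes lower in WD vs. CD. In WD + CHP vs. CD, 1 hepatocyte, 1 fast-fibre and 1 slow-fibre gene were higher and 1 endothelial gene lower. The fast-fibre sum was 18.0 to 19.7 CPM in CD, below the 22.7 to 29.3 CPM in WD and 22.4 to 28.8 CPM in WD + CHP with no overlap, and 1 of its 9 genes was at 0. The part of these markers in the results was not tested.

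*Hmox1* (chr8:75093621-75100589), which degrades haem and is a classic NRF2-inducible gene, showed the largest difference of the called kidney members. Its CPM was 26.7, 22.4, 26.5, 22.5 and 20.6 in the CD libraries. In the WD libraries it was 33.9, 26.1, 29.5, 27.6 and 26.2. In the WD + CHP libraries it was 36.5, 35.3, 33.1, 39.7 and 31.0. All 5 WD + CHP kidneys were above all 5 CD kidneys, and the WD kidneys overlapped both. The log2 fold change of WD + CHP vs. CD was 0.56 (standard error 0.087, adjusted p = 0.00114), and the call held in all 15 fits with 1 library left out. WD vs. CD (0.27, 0.087, 0.0578) and WD + CHP vs. WD (0.29, 0.086, 0.182) did not pass in the same model. *Nqo1*, the quinone reductase most used as an NRF2 read-out, did not pass the test in any kidney comparison. Its CPM was 43.4, 44.4, 43.0, 56.4 and 46.4 in CD. It was 40.3, 40.2, 41.4, 43.1 and 41.5 in WD. In WD + CHP it was 40.3, 44.7, 31.9, 28.3 and 44.4, with replicates 3 and 4 below every other kidney library. The log2 fold change of WD + CHP vs. CD was -0.30 (standard error 0.11, adjusted p = 0.0787). It passed under DESeq2 (-0.30), with libraries scaled by total count (-0.35) and with offsets for length and GC content (-0.33).

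The regulators gave no call. *Nfe2l2* ranged from 108 to 141 CPM and *Keap1* from 23.4 to 27.9 CPM across the 15 kidney libraries, with log2 fold changes between -0.13 and 0.016 over the 3 comparisons. The exons of *Keap1* overlap *Gm16754* on the opposite strand, and the strand setting of the counts is not given in the sources used here.

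Among the genes of glutathione supply, edgeR with all libraries called 0 of 5 in any kidney comparison, though some alternatives given below called *Gclm* or *Gsr*. *Gclc* (chr9:77754535-77794485) varied the most between libraries. *Gclc* encodes the catalytic subunit of glutamate-cysteine ligase, the enzyme that sets the pace of glutathione synthesis. Its CPM was 452, 323, 275, 342 and 303 in CD. It was 194, 215, 282, 247 and 206 in WD. In WD + CHP it spread from 171 to 519, with 384, 519, 324, 212 and 171. The standard error of its fold changes was 0.23, so that neither WD vs. CD (-0.57, adjusted p = 0.126) nor WD + CHP vs. WD (0.49, adjusted p = 0.426) passed. The modifier subunit *Gclm* was 308 to 374 CPM in CD and 284 to 307 CPM in WD, with no overlap, and was also short of the threshold (-0.20, standard error 0.065, adjusted p = 0.0632). In WD + CHP it was 267 to 346 CPM and overlapped both groups. Glutathione synthetase *Gss*, glutathione reductase *Gsr*, which regenerates reduced glutathione with NADPH, and *Ggt1* had log2 fold changes between -0.15 and 0.086. The peroxidases *Gpx1*, *Gpx3* and *Gpx4* stayed between -0.081 and 0.17. *Gpx4* shares 99.7% identity over 733 bases with the pseudogene *Gpx4-ps2*, so its reads may be split.

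*Srxn1* (chr2:152105516-152111376) encodes sulfiredoxin, which repairs over-oxidised peroxiredoxins. Its CPM in kidney was 58.3, 55.0, 57.7, 50.1 and 51.7 in CD. It was 63.3, 57.1, 60.4, 65.6 and 58.7 in WD. In WD + CHP it was 65.9, 60.4, 62.9, 59.9 and 69.0, above every CD library. The rise of WD + CHP vs. CD was 0.22 on the log2 scale (standard error 0.054, adjusted p = 0.0144), and it held in the 15 fits with 1 library left out. WD vs. CD was 0.16 (adjusted p = 0.0686). *Prdx6* (chr1:161240112-161251219), a peroxiredoxin that also acts on phospholipids, was 155, 165, 169, 178 and 154 CPM in CD. In WD it was 193, 179, 183, 182 and 176 CPM, and in WD + CHP it was 166 to 185 CPM. Only CD replicate 4 reached into the WD range. The log2 fold change of WD vs. CD was 0.15 (standard error 0.044, adjusted p = 0.0390). The call was lost (adjusted p up to 0.102, log2 fold change 0.13 to 0.19) without CD replicate 1, 2 or 5, without WD replicate 1, 2, 3 or 4 and without WD + CHP replicate 3. It was also lost (adjusted p up to 0.0926) with total count scaling, with no filter, with only the 2 groups compared and with the replicate block, alone or with length and GC offsets. Thioredoxin *Txn1*, its reductase *Txnrd1* and the other peroxiredoxins lay between -0.080 and 0.14 over the 3 comparisons.

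By edgeR with all libraries, the superoxide dismutases gave no call in kidney. *Sod2* was called in WD + CHP vs. CD by DESeq2 (0.10, adjusted p = 0.0415) and by edgeR without WD + CHP replicate 1 (0.13, 0.0329). Mitochondrial *Sod2* was 262 to 281 CPM in CD and 287 to 298 CPM in WD, with no overlap, yet the difference of 0.10 (standard error 0.038) had an adjusted p of 0.107. Cytosolic *Sod1*, extracellular *Sod3* and *Cat* had log2 fold changes between -0.094 and 0.12.

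Of the 9 glutathione S-transferases, which couple glutathione to electrophiles, 1 rose and 1 fell in WD vs. CD. *Gstm1* (chr3:108012255-108017973) was 545, 555, 592, 729 and 668 CPM in CD. It was 508, 538, 485, 459 and 548 CPM in WD. In WD + CHP it was 479, 517, 433, 398 and 473 CPM, below every CD library. The fall was -0.28 in WD vs. CD (standard error 0.083, adjusted p = 0.0404) and -0.43 in WD + CHP vs. CD (0.083, 0.00454). The second call held in all 15 fits with 1 library left out. The first was lost (adjusted p up to 0.102, log2 fold change -0.32 to -0.21) without CD replicate 3, 4 or 5, without WD replicate 1, 2, 3 or 4 or without WD + CHP replicate 1, and also with the replicate block (-0.28, adjusted p = 0.0554). *Gstm1* shares 97.9% identity over 657 bases with the pseudogene *Gstm2-ps1*. *Gstt1* (chr10:75783813-75798584) was 82.7, 94.6, 92.1, 92.6 and 97.5 CPM in CD. In WD it was 105, 96.3, 111, 112 and 110 CPM, with replicate 2 alone inside the CD range. The rise was 0.22 (standard error 0.051, adjusted p = 0.0128) and held in all 15 fits. In WD + CHP *Gstt1* was 95.2 to 106 CPM, and 0.13 above CD (adjusted p = 0.0927). The other 7 transferases had values from -0.18 (*Gsta4*) to 0.15 (*Gstm5*) in WD vs. CD, with *Gstm5* at 64.0 to 75.1 CPM in CD and 72.0 to 78.8 CPM in WD (adjusted p = 0.0634).

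All 9 glutathione S-transferases had a negative log2 fold change in WD + CHP vs. WD, from -0.43 to -0.056 with a median of -0.14, and 0 of them passed (3 had an unadjusted p under 0.05). The 9 signs were also negative with total count scaling and with DESeq2's size factors. Of all genes tested, 8975 of 17120 had a negative value there. Of the 11 other glutathione S-transferases tested from the pathway list, 8 had a negative and 3 a positive value (-0.49 to 0.11, median -0.12), and 0 passed. *Gsta2* had the most negative of the 9 values. Its CPM was 247, 276, 211, 247 and 235 in WD and 186, 212, 124, 104 and 273 in WD + CHP. Replicates 3 and 4 of WD + CHP were the lowest of the 15 kidney libraries for *Gsta2*, for *Gsta3* (49.1 and 47.3 CPM, 59.4 to 79.2 elsewhere), for *Gstp1* (66.4 and 62.0, 74.4 to 83.9 elsewhere) and for *Gstk1* (49.0 and 45.2, 52.9 to 60.0 elsewhere), as they were for *Nqo1*, *Gsta4*, *Gsr*, *Txnrd1* and *Gstm1* (433 and 398, 459 to 729 elsewhere). The call of *Gstm1* in WD + CHP vs. CD held without either library, and leaving out both was not run. The same 2 libraries had the smallest TMM factors of kidney (0.959 and 0.962) and mitochondrial shares of 21.0% and 21.1%. The part of these in the values was not tested. *Gsta2* is 97.2% to 98.2% identical to 3 related genes over most of its transcript, and *Gstp1* 98.2% to *Gstp2*, so that reads may be split between them.

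The NADPH oxidase subunits make superoxide or hydrogen peroxide. *Nox4* (chr7:87246096-87398710), the oxidase of the renal tubule, was 455, 338, 294, 406 and 367 CPM in CD. In WD it was 465, 486, 452, 440 and 437 CPM, and in WD + CHP 407, 409, 384, 444 and 503 CPM. The WD kidneys were above 4 of the 5 CD kidneys, and the log2 fold change of 0.29 (standard error 0.094) had an adjusted p of 0.0577. *Cyba*, the shared membrane subunit, and *Cybb*, the oxidase of phagocytes, had values of 0.080 and 0.34 in WD vs. CD (adjusted p = 0.252 and 0.0877). Of 8 macrophage markers 0 passed in kidney.

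The number of kidney calls moved with single libraries. In WD vs. CD, 1 member was called without WD replicate 1, 3 or 4 (*Gstt1*), beside 1204, 1151 and 1291 of all genes. Without WD replicate 5, the library high in hepatocyte markers, 5 were called (*Hmox1*, *Prdx6*, *Gstm1*, *Gstt1*, *Cybb*) beside 1401 of all genes, and without WD + CHP replicate 5 there were 5 (*Gclm*, *Prdx6*, *Gstm1*, *Gstt1*, *Nox4*) beside 1744. In WD + CHP vs. CD, 5 were called without CD replicate 3 (*Gpx4* and *Gsta4* added) or without WD + CHP replicate 1 (*Sod2* and *Gstp1* added) and 8 without WD + CHP replicate 5, in which *Nqo1*, *Gsr*, *Gpx4*, *Gsta4* and *Gstp1* joined the 3. All genes called in those fits numbered 1824, 2150 and 1962. DESeq2 called 9 of 36 members in WD vs. CD, beside 2029 of all 17120 genes, where *Hmox1*, *Gclm*, *Srxn1*, *Gstm5*, *Nox4* and *Cybb* joined the 3. It called 7 of 36 in WD + CHP vs. CD, beside 2421 of 17120, where *Nqo1*, *Sod2*, *Gsta4* and *Gstp1* joined the 3. Scaled by total count, the 3 calls of WD vs. CD were 1 higher and 2 lower, and WD + CHP vs. CD had 6 calls, 2 higher and 4 lower, beside 660 higher and 1814 lower among all genes.

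**Figure D2:**
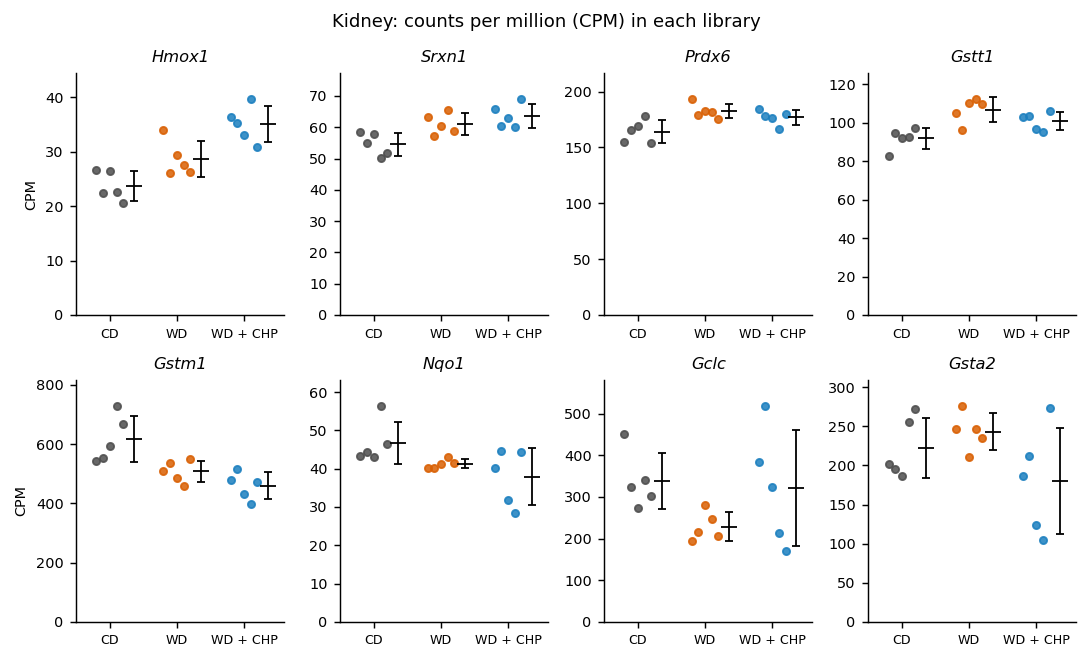
CPM of 8 members in each kidney library (points) for CD, WD and WD + CHP, with the mean and SD of 5 libraries in black. *Hmox1* and *Srxn1* of WD + CHP lie above all CD libraries (31.0 to 39.7 against 20.6 to 26.7 CPM for *Hmox1*), *Gstm1* of WD + CHP lies below them, and WD + CHP replicates 3 and 4 hold the 2 lowest values of *Nqo1* and *Gsta2*.

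In gastrocnemius, WD vs. CD called 7 of 34 members (20.6%), against 8.63% of all 15419 genes tested. *Srxn1*, *Prdx6*, *Sod3* and *Cat* rose (4.67% of all genes rose), and *Gclc*, *Gpx3* and *Nox4* fell (3.96% of all genes fell). The median log2 fold change of the members was 0.083, and that of all genes was 0.0013. The members were chosen with earlier results of these data known, so their share of calls is no independent result. WD + CHP vs. WD called 0 of 34, against 0.409% of all genes (0.0649% higher, 0.344% lower), and 4 of the 34 had an unadjusted p under 0.05, as did 1929 of 15419 genes. limma-voom also called 0, and DESeq2 called 3 (*Srxn1*, *Sod3* and *Cybb*), beside 249 of all 15419 genes. WD + CHP vs. CD called 6 of 34 members (17.6%), against 9.40% of all genes. *Srxn1*, *Prdx2*, *Prdx6* and *Cat* rose (4.85% of all genes rose), and *Gpx3* and *Nox4* fell (4.55% of all genes fell). Both comparisons with CD share the 5 CD libraries, so their calls are not independent of each other.

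Scaled by total count, WD vs. CD called 7 members with 6 higher and 1 lower, in which *Gsr* and *Prdx1* took the place of *Gclc* and *Gpx3*, and the split over all genes went from 720 higher and 610 lower to 1506 and 346. With the adipocyte score as a covariate, 0 of the 7 calls of WD vs. CD remained and 7 genes passed among all genes, with adjusted p of the 7 members from 0.0888 (*Srxn1*) to 0.609 (*Nox4*). Their log2 fold changes in that fit were 0.59 for *Srxn1*, 0.20 for *Prdx6*, 0.62 for *Sod3*, 0.63 for *Cat*, -0.26 for *Gclc*, -0.45 for *Gpx3* and -0.48 for *Nox4*, against 0.49, 0.27, 0.74, 0.65, -0.23, -0.37 and -0.58 without the score. Since the score did not overlap between WD and CD, the score and the diet cannot be told apart in that fit. The 6 calls of WD + CHP vs. CD, where the scores overlap, were all kept with the covariate. Without the 2 libraries high in hepatocyte markers, 5, 0 and 5 members were called in WD vs. CD, WD + CHP vs. WD and WD + CHP vs. CD, beside 805, 26 and 1110 of all genes. Of 9 adipocyte markers, none of them at 0, 4 were higher and 1 lower in WD vs. CD and 4 were lower in WD + CHP vs. WD. In WD + CHP vs. CD, 1 adipocyte marker was higher and 1 lower. The summed CPM of the 9 was 1104 to 1534 in CD, 1084 to 1554 in WD and 930 to 1344 in WD + CHP. Of 7 slow fibre markers 0 passed, with sums of 572 to 1589, 776 to 2822 and 936 to 1574 CPM. Of 9 fast fibre markers, 1 was lower in WD vs. CD (median log2 fold change -0.22), and their sums were 204000 to 245100 in CD, 180400 to 212000 in WD and 185400 to 218700 CPM in WD + CHP. Of 3 brown adipocyte markers tested, 1 was higher in WD vs. CD and in WD + CHP vs. CD. The part of these markers in the results was not tested.

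*Srxn1* showed the smallest p of all members. Its CPM was 18.8, 19.6, 20.2, 22.0 and 21.5 in CD. It was 30.6, 27.1, 27.1, 28.3 and 30.0 in WD. In WD + CHP it was 32.2, 31.2, 34.4, 35.4 and 37.4. The 3 groups did not overlap at any library. The rise was 0.49 on the log2 scale in WD vs. CD (standard error 0.060, adjusted p = 0.000139) and 0.74 in WD + CHP vs. CD (0.060, 1.34e-05). The further difference of 0.25 in WD + CHP vs. WD (0.059) had an adjusted p of 0.0977 and passed under DESeq2 (0.26, adjusted p = 0.0106). Its promoter window is the first of those printed above.

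*Prdx6* was 61.7, 63.5, 57.6, 57.3 and 57.7 CPM in CD. It was 67.4, 70.7, 73.1, 70.2 and 77.4 CPM in WD and 70.1, 75.0, 76.4, 73.0 and 73.9 CPM in WD + CHP, both above every CD library. Its rises were 0.27 (standard error 0.046, adjusted p = 0.00177) and 0.31 (0.046, 0.000994) relative to CD. Relative to WD, WD + CHP was 0.038 higher (adjusted p = 0.793). *Prdx2* (chr8:84969587-84974834), a cytosolic peroxiredoxin, was 66.0, 68.8, 59.1, 60.9 and 58.4 CPM in CD and 68.4, 78.3, 77.8, 71.8 and 71.9 CPM in WD + CHP, and WD was at 63.0 to 80.7 CPM. WD + CHP vs. CD was 0.23 (standard error 0.068, adjusted p = 0.0393). That call was lost (adjusted p up to 0.102, log2 fold change 0.21 to 0.28) without CD replicate 3, 4 or 5 or WD + CHP replicate 2, 3, 4 or 5, and also (adjusted p up to 0.0765) with total count scaling, with no filter, with the replicate block and without the 2 libraries high in hepatocyte markers. *Prdx2* exons overlap *Rnaseh2a* and *Junb* on the opposite strand. All 8 members of the thioredoxin and peroxiredoxin system had a positive log2 fold change in WD vs. CD (0.062 to 0.49, median 0.19) and in WD + CHP vs. CD (0.013 to 0.74, median 0.19), of which 2 and 3 passed (4.67% and 4.85% of all genes rose), and the 8 signs were positive with both other scalings too. In all genes, 7773 and 7292 of 15419 had a positive value. Of the 14 other peroxidases, thioredoxins and glutaredoxins tested from the pathway list, 5 and 7 had a positive value (medians -0.034 and -0.016), with 0 and 1 called higher and 1 and 2 called lower. WD replicate 5 held the highest gastrocnemius value of *Txn1* (29.6 CPM), *Prdx1* (135), *Prdx2* (80.7), *Prdx3* (180), *Prdx5* (118) and *Prdx6* (77.4). That library stood apart, with a summed CPM of brown adipocyte markers of 131 against 46.6 to 83.0 in the other 14 muscles and a chi-square per gene of 37.5 to 76.4 to the other WD libraries, against 16.3 to 39.6 among those. Without it, *Srxn1* (0.47, adjusted p = 0.000429) and *Prdx6* (0.24, 0.00370) still passed in WD vs. CD by edgeR. Its part in the other values was not tested.

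*Cat* (chr2:103453849-103485160), the peroxisomal enzyme that splits hydrogen peroxide, was 84.6, 92.2, 83.7, 79.9 and 76.0 CPM in CD. In WD it was 147, 140, 145, 104 and 119 CPM, and in WD + CHP 110, 117, 116, 124 and 125 CPM. Every western diet library was above every CD library, with or without CHP. The rise was 0.65 in WD (standard error 0.084, adjusted p = 0.000207) and 0.51 in WD + CHP (0.084, 0.00174), and WD + CHP was -0.15 relative to WD (adjusted p = 0.51). *Sod3* (chr5:52363791-52371418), the secreted superoxide dismutase, was 11.1, 13.2, 10.2, 9.79 and 9.24 CPM in CD. It was 19.9, 17.7, 23.1, 15.4 and 13.4 CPM in WD, above CD in every library, and 12.5, 14.4, 14.1, 11.9 and 12.5 CPM in WD + CHP. WD vs. CD was 0.74 (standard error 0.13, adjusted p = 0.00174). WD + CHP vs. WD was -0.45 (0.13, 0.1415) and WD + CHP vs. CD 0.29 (0.13, 0.171), so the WD + CHP level lay between the others and passed against neither by edgeR, while DESeq2 called the difference from WD (-0.45, adjusted p = 0.0434). *Sod1* (69.6 to 92.9 CPM) and *Sod2* (245.5 to 272 CPM) had log2 fold changes of 0.032 to 0.080.

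*Gpx3* (chr11:54902453-54910377) fell in both western diet groups. It was 199, 241, 240, 184 and 250 CPM in CD, 163, 158, 164, 177 and 202 CPM in WD and 169, 161, 142, 187 and 190 CPM in WD + CHP, with CD replicates 1 and 4 inside the WD range. The falls were -0.37 (standard error 0.097, adjusted p = 0.0258) and -0.39 (0.097, 0.0187). The first call ended when CD replicate 2, 3 or 5 was left out, and also when WD replicate 1, 2 or 3 was (adjusted p up to 0.0690, log2 fold change -0.43 to -0.33), and with total count scaling or without both libraries high in hepatocyte markers. The second was lost (adjusted p up to 0.0543, log2 fold change -0.45 to -0.33) without CD replicate 3 or 5 or WD + CHP replicate 3. *Gpx1* and *Gpx4* had values between -0.11 and 0.15. In glutathione supply, *Gclc* was 15.6, 13.5, 16.5, 16.4 and 16.4 CPM in CD and 13.97, 12.6, 13.9, 14.1 and 12.3 CPM in WD, with CD replicate 2 alone inside the WD range. The fall was -0.23 (standard error 0.065, adjusted p = 0.0366). Leaving out CD replicate 1, 3, 4 or 5 or leaving out WD replicate 2, 3 or 5 ended that call (adjusted p up to 0.0880, log2 fold change -0.28 to -0.20), as did total count scaling, no filter, only the 2 groups compared, the replicate block, the adipocyte score and leaving out the 2 libraries high in hepatocyte markers. In WD + CHP *Gclc* was 12.9 to 15.2 CPM. *Gclm* (-0.21, adjusted p = 0.192), *Gss* (0.032, adjusted p = 0.880) and *Gsr* (0.17, adjusted p = 0.0653) did not pass in WD vs. CD.

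*Nox4* was a low-level gene in muscle, with 125 to 154 counts per CD library. Its CPM was 2.54, 2.91, 2.81, 2.54 and 2.46 in CD. It was 2.097, 1.44, 2.28, 1.31 and 1.70 in WD and 1.38, 1.22, 1.51, 1.59 and 1.51 in WD + CHP. All western diet muscles were below all CD muscles. The falls were -0.58 (standard error 0.14, adjusted p = 0.0126) and -0.88 (0.14, 0.00128), and WD + CHP vs. WD was -0.29 (adjusted p = 0.4097). *Cyba* lay between -0.19 and 0.10. *Cybb* was 2.12 to 4.08 CPM in CD, 1.85 to 3.69 CPM in WD and 1.57 to 2.23 CPM in WD + CHP. Its WD + CHP vs. WD difference of -0.76 (standard error 0.20) had an adjusted p of 0.124, but passed without WD replicate 4 (-0.90, adjusted p = 0.0384) and under DESeq2 (-0.76, adjusted p = 0.0230). Of 8 macrophage markers 0 passed in gastrocnemius, with summed CPM of 65.8 to 112 in CD, 75.7 to 109 in WD and 56.0 to 114 in WD + CHP, and their part was not tested.

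*Hmox1*, called in kidney, was 4.52 to 6.47 CPM in the CD muscles, 4.88 to 5.49 CPM in WD and 4.59 to 5.82 CPM in WD + CHP, with log2 fold changes of -0.11 to 0.010. *Nqo1* was 14.2 to 16.7, 15.4 to 21.9 and 15.5 to 19.9 CPM (0.20 in WD vs. CD, adjusted p = 0.195). *Nfe2l2* and *Keap1* lay between -0.066 and 0.038. None of the 8 glutathione S-transferases tested passed in gastrocnemius, where the log2 fold changes of those other than *Gsta3* ran from -0.30 (*Gstm2*, WD + CHP vs. WD) to 0.21 (*Gstt1*, WD vs. CD). *Gsta3* was 0.156 to 0.674 CPM in the other libraries and 1.18 and 1.90 CPM in CD replicate 1 and WD replicate 3, the libraries high in hepatocyte markers. *Gstm1* was 107 to 142 CPM in CD, 103 to 114 CPM in WD and 91.0 to 122 CPM in WD + CHP (-0.24 in WD + CHP vs. CD, adjusted p = 0.0865).

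**Figure D3:**
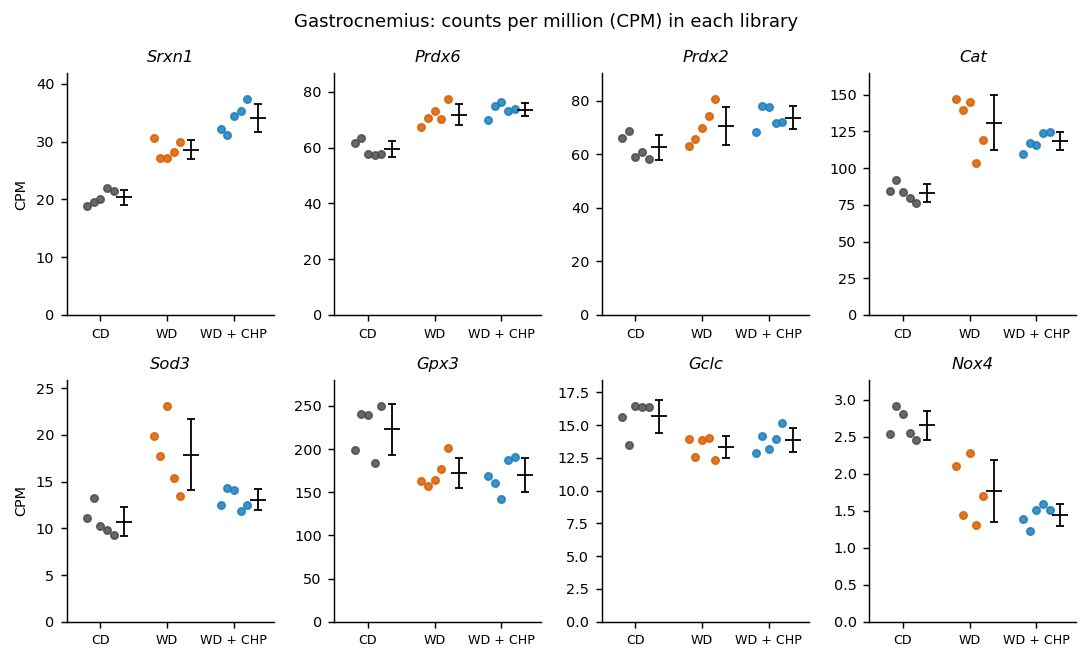
CPM of 8 members in each gastrocnemius library (points) for CD, WD and WD + CHP, with the mean and SD of 5 libraries in black. *Srxn1* steps up without overlap from CD (18.8 to 22.0) through WD (27.1 to 30.6) to WD + CHP (31.2 to 37.4 CPM), *Cat* and *Prdx6* are above CD in both western diet groups, and *Nox4* is below CD in both.

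The effects of the 2 tissues were compared in 1 model of 30 libraries, as the difference of their log2 fold changes. The model took the 30 libraries as separate animals, and no library was linked to another as coming from the same mouse. In WD vs. CD, 5 of 36 members differed between kidney and gastrocnemius (13.9%), against 4.27% of 18708 genes. The 36 include *Ggt1* and *Gsta2*, too low to test in gastrocnemius alone, with standard errors of 0.80 and 1.4 here. The 18708 genes outnumber the 17120 tested in kidney and the 15419 in gastrocnemius, so they too hold genes not tested in 1 tissue. Such genes could hardly show a difference, which lowers both shares by an amount that was not measured. *Sod3* (kidney -0.094, gastrocnemius 0.74, adjusted p = 0.000364) and *Cat* (-0.012 and 0.65, adjusted p = 0.000180) rose in muscle with no call in kidney. *Srxn1* had positive values in both (0.16 and 0.49, adjusted p of the difference = 0.0182). *Nox4* (0.29 and -0.58, adjusted p = 0.00159) and *Gpx3* (0.17 and -0.37, adjusted p = 0.0200) had opposite signs, of which only the muscle values passed on their own. Between WD + CHP and WD, 0 of 36 differed, against 0.380% of all genes. *Sod3* (0.12 and -0.45) was the 1 member that passed there without gastrocnemius CD replicate 2 or 5, WD replicate 4 or 5 or WD + CHP replicate 2 (difference 0.57 to 0.66), under DESeq2, with a minimum of 10 counts in every library and with the replicate block (0.55 to 0.57). Relative to CD, the WD + CHP effect of 7 of 36 members differed (19.4%), against 6.02% of all genes. They were *Hmox1* (0.56 and -0.099, adjusted p = 0.00288), *Gsr* (-0.15 and 0.14, 0.0298), *Gpx3* (0.085 and -0.39, 0.0353), *Srxn1* (0.22 and 0.74, 0.000356), *Cat* (-0.032 and 0.51, 0.00189), *Nox4* (0.21 and -0.88, 0.000372) and *Cybb* (0.24 and -0.63, 0.0298). On its own, *Hmox1* passed in kidney only, *Gpx3*, *Cat* and *Nox4* in gastrocnemius only and *Srxn1* in both, while *Gsr* and *Cybb* passed in neither. Without kidney CD replicate 2 the count of members that differed was 4 (*Hmox1*, *Srxn1*, *Cat* and *Nox4*).

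**Figure D4:**
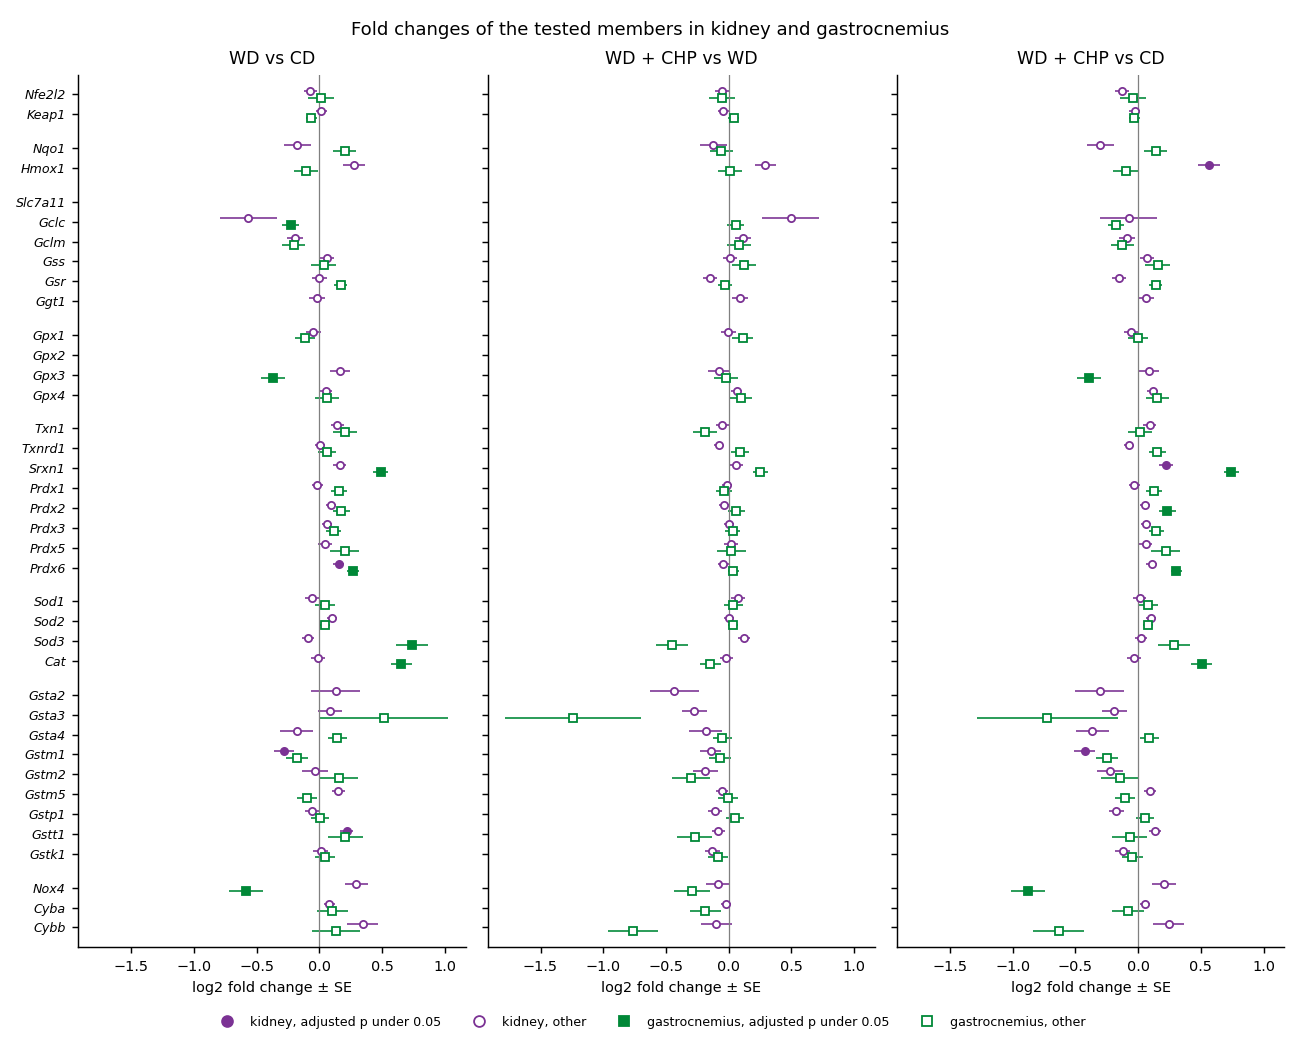
Log2 fold change with its standard error for the tested members, by role from top to bottom, in WD vs. CD, WD + CHP vs. WD and WD + CHP vs. CD; circles are kidney, squares gastrocnemius, and filled symbols have an adjusted p under 0.05. The middle panel has no filled symbol, and *Srxn1* and *Nox4* of gastrocnemius lie farthest apart in the right panel, at 0.74 and -0.88.

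**Figure D5:**
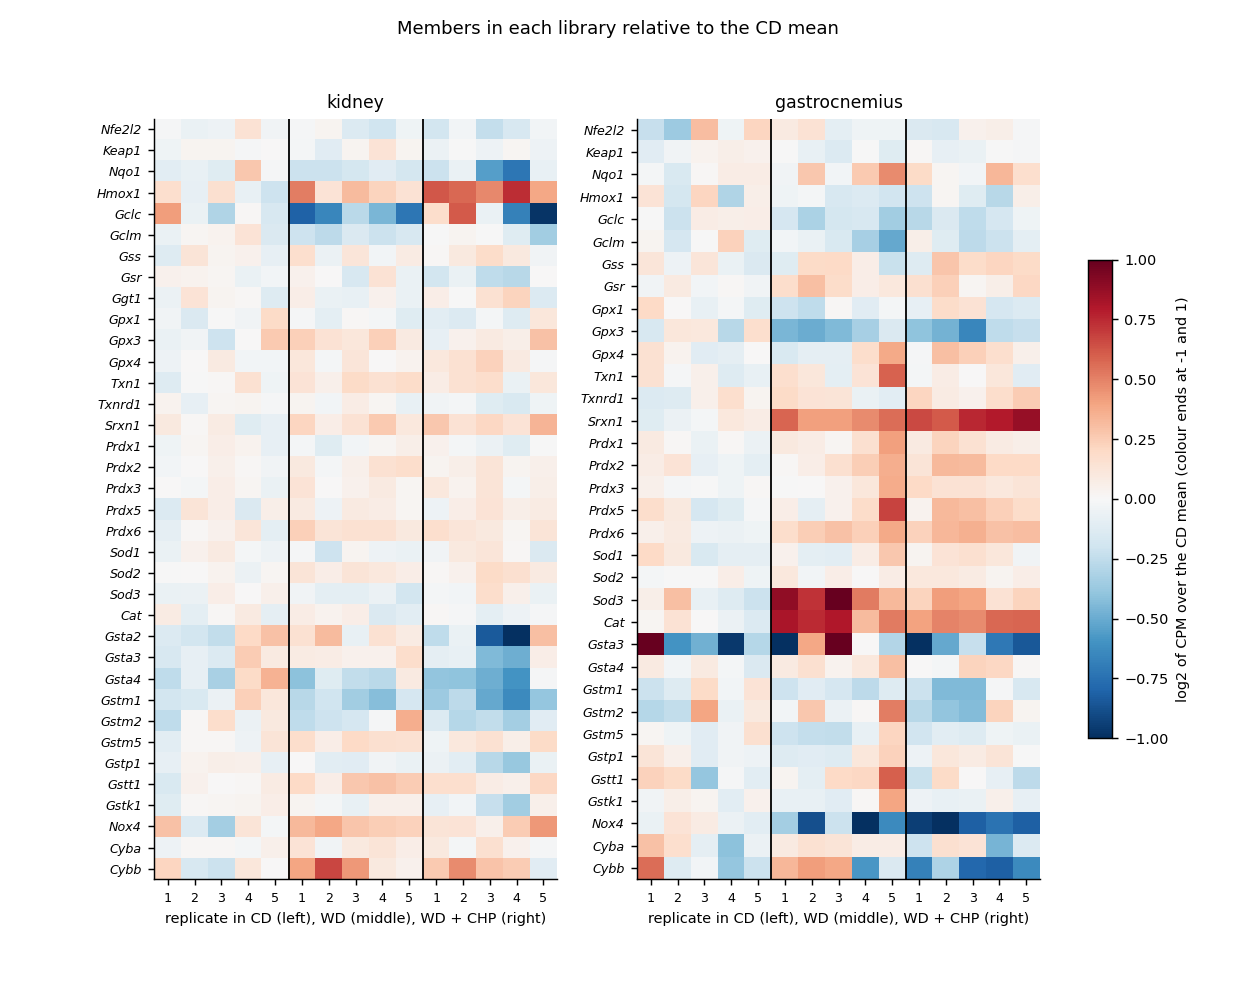
Log2 of each library's CPM over the mean of the 5 CD libraries of that tissue, for the members that passed the filter, with colours ending at -1 and 1. In kidney, *Hmox1* is red across WD + CHP and *Gsta2* is darkest blue in WD + CHP replicates 3 and 4; in gastrocnemius, *Srxn1*, *Prdx6* and *Cat* are red and *Nox4* blue in all 10 western diet libraries.

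Other genes of the same pathways were taken from a list of 77. That list was chosen with earlier results of these data known, so its shares are no independent result about the pathways. In kidney, 13 of the 71 tested passed in WD vs. CD (18.3%), with 6 higher and 7 lower, against 9.65% of all genes (4.62% higher, 5.03% lower). *Txnip*, the inhibitor of thioredoxin that glucose induces, fell most (log2 fold change -0.92, standard error 0.095, adjusted p = 3.94e-05, from a mean of 459 to 243 CPM), followed by the glutathione S-transferase *Gstt2* (-0.56), the glutathione-degrading *Ggct* (-0.48), the peroxidase *Gpx6* (-0.37) and the reductase *Txnrd3* (-0.35). The largest rises were those of *Gstm6* (0.66), *Ggt5* (0.50), glutaredoxin *Glrx* (0.33), the aminopeptidase *Anpep* (0.23) and biliverdin reductase *Blvrb* (0.21). Of the same genes in WD + CHP vs. CD, 11 of 71 passed (15.5%, against 12.1% of all genes), 2 higher (*Glrx*, 0.33, and the selenium carrier *Selenop*, 0.31) and 9 lower, of which *Txnip* (-0.90), *Gstt2* (-0.45), carbonyl reductase *Cbr1* (-0.42), *Gsto1* (-0.38) and *Ggct* (-0.34) fell most. For WD + CHP vs. WD, 0 of 71 passed (0.105% of all genes), and 13 had an unadjusted p under 0.05.

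In gastrocnemius, 7 of 68 pathway genes passed in WD vs. CD (10.3%), a share near the 8.63% of all genes, so that the genes named next are single genes and no result about the pathway. The NRF2-inducible *Osgin1* (0.36) and aldehyde oxidase *Aox1* (0.34) and the NADPH-forming *Pgd* (0.28) rose, and the glutathione-degrading *Chac1* (-1.16), *Txnip* (-0.71), transketolase *Tkt* (-0.31) and the exporter *Abcc1* (-0.25) fell. In WD + CHP vs. CD, 7 passed (10.3%, near the 9.40% of all genes), with *Osgin1* (0.54), the oxoprolinase *Oplah* (0.31) and the methionine sulfoxide reductase *Msra* (0.23) higher and *Txnip* (-0.74), *Tkt* (-0.40), *Selenop* (-0.39) and *Abcc1* (-0.23) lower. In WD + CHP vs. WD, 0 of 68 passed (0.409% of all genes), and 10 had an unadjusted p under 0.05. *Txnip* was thus lower in both tissues and both western diet groups, by 0.71 to 0.92 on the log2 scale, in comparisons that share the CD libraries within a tissue.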

How the data were processed

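PolyA-enriched RNA of kidney and gastrocnemius was sequenced on the BGISEQ-500 and cleaned with SOAPnuke, and per the submitters' processing notes aligned with STAR 2.7.3a to mm10 (GRCm38). The values deposited by the authors are read counts per gene, 1 whole number for each library, and were not normalised. The counting tool, annotation and strand setting are not given in the sources used here. The labels and the paper also differ on the extraction kit. Every column was matched to a library, and 0 columns were left without a sample.

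The tools were edgeR 4.0.16, DESeq2 1.42.0 and limma 3.58.1 under R 4.3.3, with plots from Python and matplotlib. In each tissue genes were kept by filterByExpr (minimum count 10), library sizes were adjusted by TMM, and CD, WD and WD + CHP shared 1 quasi-likelihood model. Its p-values were adjusted by Benjamini-Hochberg and read at a threshold of 0.05. The difference between tissues was fitted on all 30 libraries. CPM used the TMM-scaled library sizes. Levels of both tissues come from tables normalised separately. The 38 members, the pathway list of 77 genes and the marker lists were chosen with earlier results of these data known. By rule, members with an adjusted p under 0.05 in any comparison were given in full and the others by level and range of fold changes, and up to 5 pathway genes per direction and comparison were named. *Nqo1*, *Gclm*, *Gsta2*, *Cybb* and *Sod2* were described further after their values were seen. Coordinates are from GENCODE M21 (GRCm38), near copies from blastn of transcripts (at least 95% identity over 100 bases) and promoters from RefSeq (GRCm38.p6).

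The scripts were tested on simulated data. A simulated log2 change of 0.5 was called in 65.66% of changed genes in kidney and 54.55% in gastrocnemius. A change of 1 was called in 80% and 79.8%, and 7 and 4 unchanged genes were called. A member without a call may therefore still have changed. Alternatives were DESeq2, limma-voom, DESeq2 size factors, total count scaling, no filter, at least 10 counts in every library, only the 2 groups compared, the replicate block, length and GC offsets, each library left out and the adipocyte score. Leaving out the 2 gastrocnemius libraries high in hepatocyte markers was added after the data were seen. Libraries of a group differed by a chi-square of at least 9.10 per gene, so none was a copy of another. Depth limits the precision of the genes with few counts.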

Additional observations from a re-analysis of the deposited data

Results flagged for a closer look

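In 8 of 210 groups of 5 libraries, the highest or lowest library lay apart from the other 4 by Dixon's test, which chance gives in about 1 of 20 groups (10.5 of 210). In kidney they were CD replicate 4 for *Nfe2l2* (141 CPM, others 122 to 127) and *Nqo1* (56.4 CPM, others 43.0 to 46.4), and WD replicate 5 for *Gsta3* (75.1 CPM, others 68.7 to 70.3), the kidney library high in hepatocyte markers. In gastrocnemius they were WD replicate 5 for *Prdx3* (179.8 CPM, others 139 to 151) and *Gstk1* (24.3 CPM, others 17.0 to 18.6), WD + CHP replicate 4 for *Gstk1* (19.1 CPM, others 17.4 to 17.8), WD + CHP replicate 1 for *Gss* (3.92 CPM, others 4.87 to 5.21) and CD replicate 1 for *Gsta3* (1.18 CPM, others 0.265 to 0.423), the last also a library high in hepatocyte markers.

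The log2 fold change differed between kidney and gastrocnemius (kidney minus gastrocnemius, edgeR, adjusted p under 0.05) for 5 members in WD vs. CD. The differences were 0.54 for *Gpx3*, -0.33 for *Srxn1*, -0.83 for *Sod3*, -0.66 for *Cat* and 0.88 for *Nox4*. For WD + CHP vs. CD they were 0.66 for *Hmox1*, -0.29 for *Gsr*, 0.48 for *Gpx3*, -0.52 for *Srxn1*, -0.54 for *Cat*, 1.09 for *Nox4* and 0.88 for *Cybb*. Both comparisons share the CD libraries.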

How the results depend on the processing

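No called member reversed its direction in any alternative that was run. Kidney members called numbered 9 (DESeq2) or 1 to 5 (1 library left out) in WD vs. CD, and in WD + CHP vs. CD 7 (DESeq2), 6 (total count scaling), 5 (length and GC offsets), 6 (these offsets with the replicate block) or 3 to 8 (1 library left out). Gastrocnemius members numbered 0 with the adipocyte score in WD vs. CD, and in WD + CHP vs. WD 3 under DESeq2 and 0 to 1 with 1 library left out. Members differing between tissues numbered 1 in WD + CHP vs. WD under DESeq2, with at least 10 counts in every library or with the replicate block (0 to 1 with 1 library left out), and 4 to 8 in WD + CHP vs. CD with 1 library left out. Of all genes, the 18 of kidney WD + CHP vs. WD became 194 (DESeq2), 37 (no filter), 0 (only the 2 groups), 70 (replicate block), 4 (length and GC offsets) or 0 to 97 (1 library left out), and kidney WD + CHP vs. CD gave 1202 to 2150 with 1 library left out (2421 under DESeq2, 2474 with total count scaling). The 63 of gastrocnemius WD + CHP vs. WD became 249 (DESeq2), 40 (no filter), 0 (adipocyte score), 26 (without the libraries high in hepatocyte markers) or 12 to 92 (1 library left out), WD vs. CD gave 7 with the adipocyte score and 805 without those libraries, and WD + CHP vs. CD gave 873 to 1713 with 1 library left out (1882 under DESeq2). Total count scaling moved the split of all calls from 51.7% to 26.7% higher in kidney WD + CHP vs. CD, from 54.1% to 81.3% in gastrocnemius WD vs. CD and from 15.9% to 0% in gastrocnemius WD + CHP vs. WD. The cause was not tested in these cases.

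Replicate numbers were not shown to pair the samples, since same-numbered libraries correlated at -0.126 to 0.146 and 7 of 30 correlated best with their own number. With the replicate block, members called numbered 4, 0 and 4 in kidney (WD vs. CD, WD + CHP vs. WD, WD + CHP vs. CD), 6, 0 and 6 in gastrocnemius and 6, 1 and 8 in the difference between tissues, beside 1582, 70 and 1970 of all genes in kidney and 1147, 44 and 1242 in gastrocnemius.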
